A study of Mus musculus with 2 samples.

Results

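Slc1a1, Slc1a2, Slc1a3 and Glul, 4 of the 21911 protein-coding genes counted, were followed by chromatin accessibility in the mouse brain 48 h after stroke. They were taken as neuronal and astrocytic genes of glutamate clearance. No measured value entered the rule, but earlier results of these data were known when they were chosen. Single-cell ATAC-seq (scATAC-seq), which marks open chromatin by where a transposase cuts the DNA of single nuclei, was run on 1 sham and 1 stroke library. Each library pooled 4 wild-type male C57BL/6J mice aged 8 to 12 weeks. In the stroke mice a filament occluded the middle cerebral artery for 1 h before reperfusion, and in the sham mice a filament was inserted but no lasting occlusion was made. The stroke library held only ipsilateral hemispheres whereas the sham library held whole brains, both without olfactory bulb and cerebellum, so tissue sampled and condition cannot be told apart. With 1 library per condition, every interval given is a 95% interval for counting error only, exact except for the approximate (Wald) ones of quotients of ratios, and no difference was tested between animals.

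Glutamate released at synapses is cleared by sodium-dependent transporters of the Slc1 family. Slc1a2 (GLT-1) and Slc1a3 (GLAST) sit mainly in astrocyte membranes and carry most of the uptake, while Slc1a1 (EAAC1) is best known from neurons. Glul encodes glutamine synthetase, the enzyme with which astrocytes turn the captured glutamate into glutamine that is handed back to neurons. Failure of this cycle lets glutamate build up outside cells during ischemia.

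The barcode filter kept 6817 sham nuclei with 73449269 fragments and 5054 stroke nuclei with 52773775 fragments. It left out 162 called barcodes of the sham library and 3686 of the stroke library. Nuclei were gated into 8 classes by profiles over coding genes, seeded and cut on marker genes, with the members playing no part. The astrocyte gate held 320 sham and 440 stroke nuclei, and the no-class remainder was 68.6% and 67.6% of the libraries. Among markers kept out of the gate, Aqp4 (the astrocyte water channel) was 11.1-fold, Gfap (an astrocyte intermediate filament) 6.04-fold and S1pr1 12.1-fold higher in astrocyte-gated nuclei than in all other nuclei. The oligodendrocyte lineage genes Olig1 and Olig2 were also 8.14-fold and 7.77-fold higher there, as were Cnp at 2.23-fold and Sox10 at 1.43-fold, while Enpp2 was at 0.868 of the other nuclei and the neuronal gene Neurod1 was at 0.15 of the other nuclei. Over nuclei, the median of the astrocyte list was 2822 CPM (fragments per 1000000 fragments) in astrocyte-gated nuclei and that of the other 7 lists 137 to 549 CPM. The gate cuts a continuous score, and 105 nuclei matching the astrocyte profile lay within 0.5 z of the cut. For the excitatory neuron profile 421 nuclei lay that close, and among its held-out markers Neurod1 was 2.36-fold, Camk2a 1.21-fold and Slc17a6 1.01-fold the level of other nuclei, with Camk2a higher in spiny projection neurons (220.1 against 200.1 CPM). Of the other gates, the held-out genes Gad1, Gad2 and Slc32a1, shared by inhibitory neurons, were 2.45-fold to 2.65-fold the level of other nuclei in interneurons and 2.84-fold to 3.84-fold in spiny projection neurons, and Sox10 was at 77.8 CPM in OPCs and 107.8 CPM in oligodendrocytes. The median percentage of fragments in peaks in astrocyte-gated nuclei was 56.2% in sham and 52.6% in stroke. In the other gated classes it was lower, at 30.5 to 43.6% in sham and 29.1 to 40.7% in stroke.

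The sequences just before the 4 annotated starts are shown because the promoters were open to very different degrees in astrocyte-gated nuclei, with Glul highest and Slc1a1 lowest. They are the 200 bases upstream of the GENCODE M21 start on the gene's strand, read from the RefSeq GRCm38.p6 genome (the mm10 build): chr19:28834849-28835048 (+) for Slc1a1, chr2:102658459-102658658 (+) for Slc1a2, chr15:8710765-8710964 (−) for Slc1a3 and chr1:153899744-153899943 (+) for Glul. Capitals mark matches, on either strand, to 4 motifs searched by their letters alone: AP-1 (TGANTCA), NFI (TTGGC and GCCAA, 5 bases apart), STAT (TTC and GAA, 3 bases apart) and the glucocorticoid receptor (ACA and TGT, 3 bases apart). The capitals in Slc1a3 are a STAT match and those in Glul a glucocorticoid receptor match. A STAT match was found in 5.79% and a glucocorticoid receptor match in 3.88% of the same 200 bases of 21906 coding genes.
Slc1a1 upstream: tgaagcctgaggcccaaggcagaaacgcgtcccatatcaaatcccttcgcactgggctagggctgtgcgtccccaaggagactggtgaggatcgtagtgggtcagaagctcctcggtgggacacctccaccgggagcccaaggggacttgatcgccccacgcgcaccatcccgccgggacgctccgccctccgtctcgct
Slc1a2 upstream: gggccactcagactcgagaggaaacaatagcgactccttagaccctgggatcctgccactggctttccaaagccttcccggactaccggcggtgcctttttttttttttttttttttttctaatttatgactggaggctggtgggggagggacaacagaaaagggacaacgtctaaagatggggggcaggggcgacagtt
Slc1a3 upstream: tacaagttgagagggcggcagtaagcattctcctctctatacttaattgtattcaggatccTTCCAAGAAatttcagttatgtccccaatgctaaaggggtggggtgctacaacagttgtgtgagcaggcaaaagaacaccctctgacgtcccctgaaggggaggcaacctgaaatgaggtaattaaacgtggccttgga
Glul upstream: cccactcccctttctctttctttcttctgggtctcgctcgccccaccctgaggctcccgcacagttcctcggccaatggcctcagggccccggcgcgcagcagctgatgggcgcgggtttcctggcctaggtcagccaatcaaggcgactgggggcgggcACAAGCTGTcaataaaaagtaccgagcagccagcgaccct

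Away from the starts, 6 stretches of 200 bases are shown, each from a region that carried a result. The regions of 3 of them had the most astrocyte cut sites of their locus outside the start: chr2:102745699-102745898 (+) in intron 5 of Slc1a2, chr15:8659744-8659943 (−) in intron 3 of Slc1a3, and chr1:153910523-153910722 (+), downstream of Glul. The first of these partly overlaps an exon of the antisense gene Gm13872. Another pair are the regions with the highest stroke to sham ratio outside the starts of Slc1a2 and Slc1a3, chr2:102725208-102725407 (+) in intron 1 of Slc1a2 and chr15:8644129-8644328 (−) in intron 6 of Slc1a3. The last, chr19:28896707-28896906 (+) inside Slc1a1, was highest in nuclei gated as oligodendrocyte precursor cells (OPCs). It also lies inside 4430402I18Rik, a gene on the other strand. The only capitals in the 6 stretches, one in each of the highest-ratio pair, are AP-1 matches.
Slc1a2 most cut: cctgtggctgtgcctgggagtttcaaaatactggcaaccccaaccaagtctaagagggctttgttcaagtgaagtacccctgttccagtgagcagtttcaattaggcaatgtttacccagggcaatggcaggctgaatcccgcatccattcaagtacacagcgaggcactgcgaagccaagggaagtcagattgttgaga
Slc1a3 most cut: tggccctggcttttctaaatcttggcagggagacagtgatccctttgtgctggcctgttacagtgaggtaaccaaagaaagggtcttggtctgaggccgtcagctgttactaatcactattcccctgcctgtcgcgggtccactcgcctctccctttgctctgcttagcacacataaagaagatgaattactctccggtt
Glul downstream: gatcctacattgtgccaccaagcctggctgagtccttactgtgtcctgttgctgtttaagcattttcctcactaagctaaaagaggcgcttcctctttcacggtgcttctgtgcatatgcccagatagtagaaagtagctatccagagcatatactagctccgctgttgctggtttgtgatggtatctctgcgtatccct
Slc1a2 highest ratio: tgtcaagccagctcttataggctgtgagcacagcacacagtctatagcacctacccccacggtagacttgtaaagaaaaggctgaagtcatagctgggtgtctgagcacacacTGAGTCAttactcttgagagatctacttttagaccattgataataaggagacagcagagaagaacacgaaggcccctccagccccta
Slc1a3 highest ratio: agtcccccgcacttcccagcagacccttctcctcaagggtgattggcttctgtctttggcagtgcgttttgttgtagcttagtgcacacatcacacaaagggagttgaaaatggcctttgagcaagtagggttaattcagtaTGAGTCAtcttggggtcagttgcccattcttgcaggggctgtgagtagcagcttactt
Slc1a1 in OPC: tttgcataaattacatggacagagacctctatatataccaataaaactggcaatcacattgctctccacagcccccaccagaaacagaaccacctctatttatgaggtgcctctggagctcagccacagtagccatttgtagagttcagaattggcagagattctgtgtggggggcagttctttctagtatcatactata

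Accessibility over gene body plus 2 kb upstream separated the 3 astrocytic genes from Slc1a1. Slc1a2, Slc1a3 and Glul were at their highest in astrocyte-gated nuclei, whereas Slc1a1, over both libraries pooled, was at its lowest there. Over both libraries pooled, the astrocyte level was 4.34-fold (95% interval 4.17 to 4.51) that of all other nuclei for Slc1a2, 7.16-fold (6.68 to 7.68) for Slc1a3 and 3.84-fold (3.52 to 4.18) for Glul, but 0.264 (0.219 to 0.315) for Slc1a1. Astrocyte-gated nuclei also had the highest share of fragments in peaks. Scaled to promoter fragments, their log2 lead over the next class was 1.04 for Slc1a2 in place of 1.66. It was 0.26 for Slc1a3 in place of 0.79 and 0.60 for Glul in place of 0.70. A level at least 1.5-fold higher in astrocyte-gated nuclei was found in 3 of 4 members and in 20.6% of the 20979 genes with enough fragments.

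**Figure D1:**
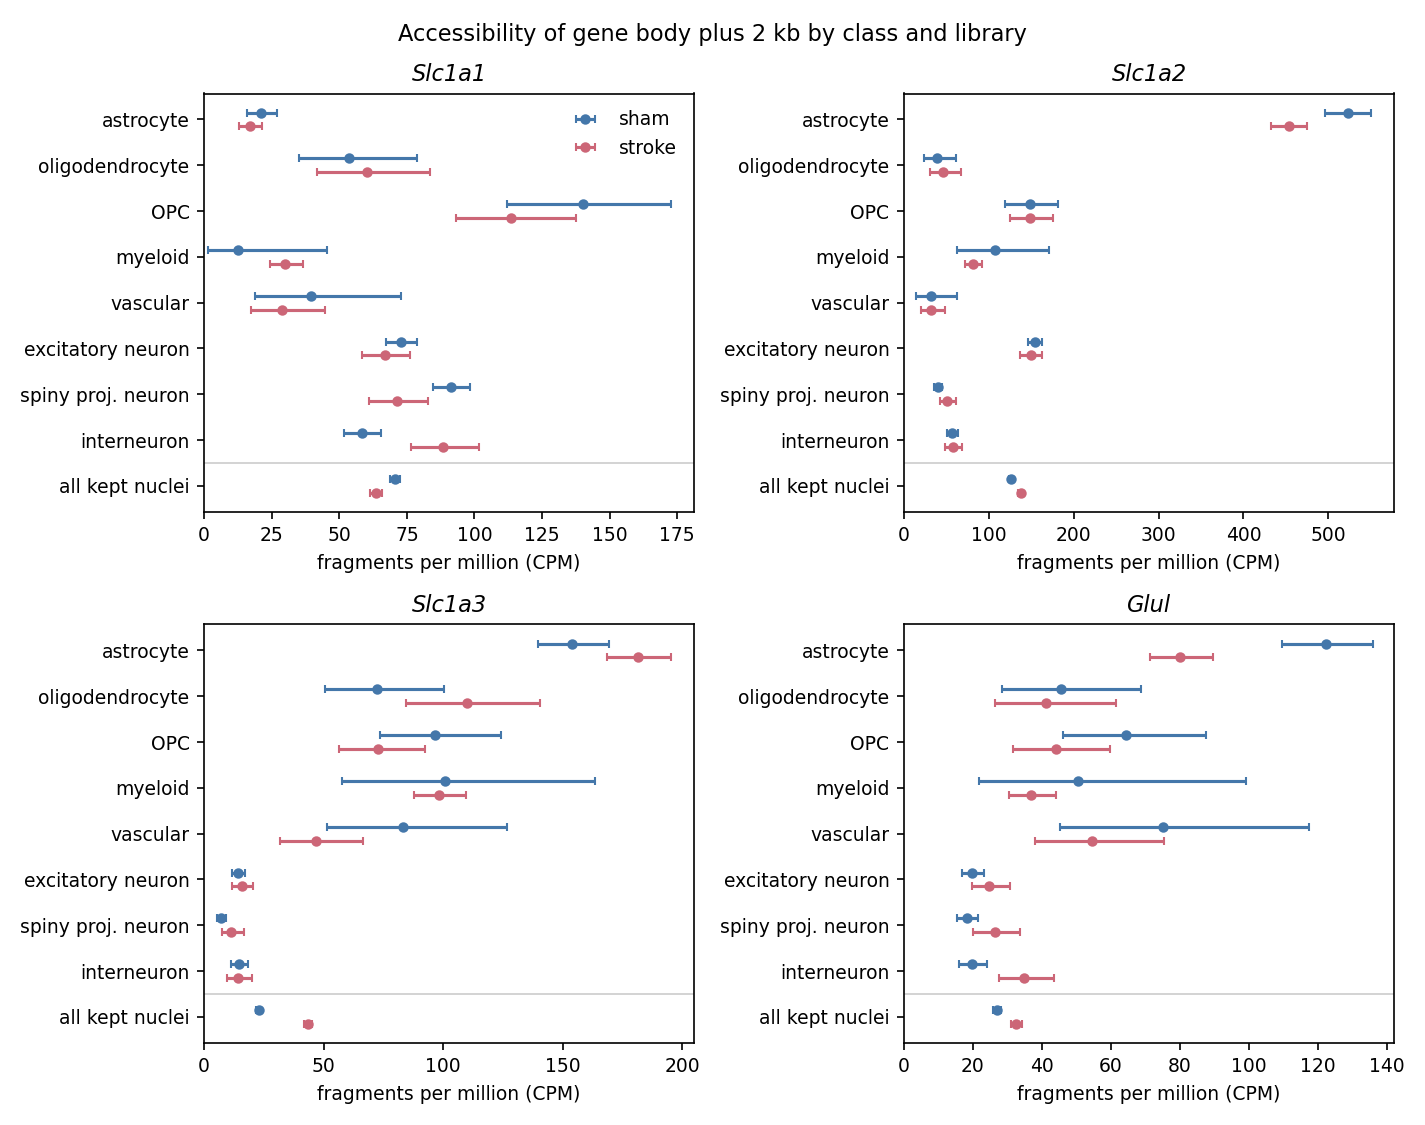
CPM over gene body plus 2 kb (x axis, linear) in each gated class and in all kept nuclei (y axis), for sham (blue) and stroke (red), with exact 95% Poisson intervals as bars. Slc1a2, Slc1a3 and Glul are farthest right in astrocyte-gated nuclei in both libraries, and Slc1a1 is farthest right in OPC-gated nuclei.

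Slc1a2 (ENSMUSG00000005089.15, chr2:102658659-102790784, + strand) had 523 CPM (496 to 550) in sham and 454 CPM (432 to 475) in stroke astrocyte-gated nuclei. Excitatory neurons came next, at 155 CPM in sham and 150 CPM in stroke, and OPCs were at 148 and 149 CPM. The ratio of excitatory neurons to OPCs was 1.03 (0.898 to 1.19), so these 2 classes could not be ordered. Myeloid nuclei were at 107 CPM in sham, on 17 fragments, and 81.5 CPM in stroke. Interneurons, spiny projection neurons, oligodendrocytes and vascular nuclei lay between 31.6 and 57.5 CPM in both libraries, the vascular class lowest when pooled. At an equal depth of 2000 fragments per nucleus, 55.6% (49.4 to 61.6) of 268 sham and 52.9% (48.0 to 57.7) of 420 stroke astrocyte-gated nuclei held at least 1 Slc1a2 fragment, against 4.17% and 8.82% of vascular nuclei. Without thinning, these nuclei held a mean of 4.52 and 3.98 Slc1a2 fragments.

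Slc1a3 (ENSMUSG00000005360.14, chr15:8634124-8710764, − strand) was the most glial of the members. It had 154 CPM (140 to 170) in sham and 182 CPM (168 to 196) in stroke astrocyte-gated nuclei. The other non-neuronal classes followed at 72.3 to 101 CPM in sham and 46.9 to 110 CPM in stroke. Pooled, myeloid nuclei were at 98.4, oligodendrocytes at 92.8 and OPCs at 82.3 CPM, and the ratios of neighbours in this order had intervals that included 1. The 3 neuronal classes were at 6.97 to 14.6 CPM in sham and 11.4 to 15.7 CPM in stroke. The step from vascular nuclei to excitatory neurons, 3.89-fold (2.80 to 5.33), was the widest in the order of the 8 classes.

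Glul (ENSMUSG00000026473.15, chr1:153899944-153909723, + strand) had 122 CPM (110 to 136) in sham and 80.0 CPM (71.4 to 89.5) in stroke astrocyte-gated nuclei. The other glial and vascular classes were at 45.4 to 75.1 CPM in sham and 36.7 to 54.4 CPM in stroke, and neurons were at 18.1 to 19.8 and 24.7 to 34.9 CPM. Per kb of the counted window, which allows genes to be compared, Glul was the most open member in stroke astrocyte-gated nuclei at 6.79 CPM per kb, followed by Slc1a2 at 3.38, Slc1a3 at 2.31 and Slc1a1 at 0.208 CPM per kb. Its window is short (11.8 kb, against 134 kb for Slc1a2) and the promoter takes more of it. The first 2285 bases of this window also lie in Teddm2, on the other strand, and held 50.4% of its astrocyte cut sites in sham and 61.5% in stroke, which cannot be told apart from those of Glul.

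Slc1a1 (ENSMUSG00000024935.11, chr19:28835049-28913960, + strand) was highest in OPC-gated nuclei, at 140 CPM (112 to 173) in sham and 114 CPM (93.0 to 137) in stroke. Below them the order of neurons differed between libraries. In sham, spiny projection neurons were at 91.4 CPM (84.7 to 98.4), excitatory neurons at 72.8 CPM (67.1 to 78.7) and interneurons at 58.3 CPM (51.6 to 65.6). In stroke, interneurons were at 88.3 CPM (76.3 to 102), spiny projection neurons at 71.2 CPM (60.8 to 82.8) and excitatory neurons at 66.9 CPM (58.6 to 76.2). Astrocyte-gated nuclei were at 20.98 CPM (15.9 to 27.1) in sham and 16.8 CPM (12.99 to 21.5) in stroke. The place of OPCs depended on the gate. With only every other gate marker, in either alternation, or with the marker score alone, spiny projection neurons were highest. Over promoters alone the log2 lead of OPCs was 0.09, with interneurons next, in place of 0.52. The last 20919 bases of the window overlap 4430402I18Rik on the other strand and held 25.9% and 23.1% of the astrocyte cut sites. This share was not computed in OPCs or the other classes.

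The 3 genes whose pattern over 8 classes in 2 libraries was most like each member, by Pearson correlation of log2(CPM + 1) over these 16 levels, are given as a description. The levels share the nuclei and depth of each library. For Slc1a2 they were Lhx2 (r = 0.95), a homeodomain transcription factor, Nwd1 (0.89) and Fam124a (0.89). For Slc1a3 they were Tle3, a transcriptional corepressor, Nfia, a transcription factor of glial development, and Plekho2, all with r = 0.95. For Glul they were Phf19 (0.93), Teddm2 (0.92), which shares fragments with it, and Plpp3 (0.92), a lipid phosphatase. For Slc1a1 they were Col20a1 (0.94), Fbxl2 (0.90) and Igsf9b (0.89). Among the members, Slc1a3 and Glul had r = 0.86, Slc1a2 had 0.40 with Slc1a3 and 0.41 with Glul, and Slc1a1 had −0.28, −0.54 and −0.51 with Slc1a2, Slc1a3 and Glul.

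The next comparison was that of stroke with sham within the astrocyte gate, and here the 3 astrocytic genes did not move together. Glul was lower in stroke, with a stroke to sham ratio of 0.654 (0.559 to 0.766), and was the only member past 1.5-fold. Slc1a2 was slightly lower at 0.867 (0.809 to 0.931), Slc1a3 slightly higher at 1.18 (1.04 to 1.33), and Slc1a1, on 58 and 65 fragments, was at 0.802 (0.554 to 1.16). Of the 16522 genes with at least 20 fragments in these nuclei, 6.95% were at least 1.5-fold lower and 10.2% at least 1.5-fold higher in stroke, so 1 of 4 members stands beside this background. The median log2 ratio of these genes was −0.03. Relative to it, the log2 ratio was −0.58 for Glul, −0.28 for Slc1a1, −0.17 for Slc1a2 and 0.27 for Slc1a3, and 6.20%, 21.3%, 31.8% and 74.4% of genes lay below them. At 2000 fragments per nucleus, 21.6% (16.9 to 27.1) of sham and 14.05% (10.9 to 17.7) of stroke astrocyte-gated nuclei held a Glul fragment.

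Several of these directions depended on how they were counted. Slc1a3 was lower in stroke over its promoter alone (log2 ratio −0.23). By cut sites in that promoter, 61 in sham and 70 in stroke, the ratio was 0.822 (0.574 to 1.18), with an interval that included 1. Promoter values use the GENCODE gene start, although the annotation has 6 coding starts for Slc1a2, 3 for Glul, 2 for Slc1a3 and 1 for Slc1a1. Slc1a2 was higher (0.10) where nuclei were gated on the marker score alone, which also brought Glul to −0.19. Slc1a1 was higher (0.31) by the mean of single-nucleus CPM. Scaling to promoter fragments added 0.15 to every log2 ratio in astrocyte-gated nuclei, since 24.1% of sham and 21.7% of stroke fragments there lay in promoters. With it Slc1a2 was at −0.05. Glul stayed lower in stroke under all 13 alternatives but fell short of 1.5-fold under 7 of them, at −0.46 with promoter scaling, −0.43 over the promoter, −0.56 with all called barcodes, −0.58 and −0.49 with a stricter and a looser gate, −0.48 with the first alternating set of gate markers and −0.19 with the marker score alone.

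**Figure D2:**
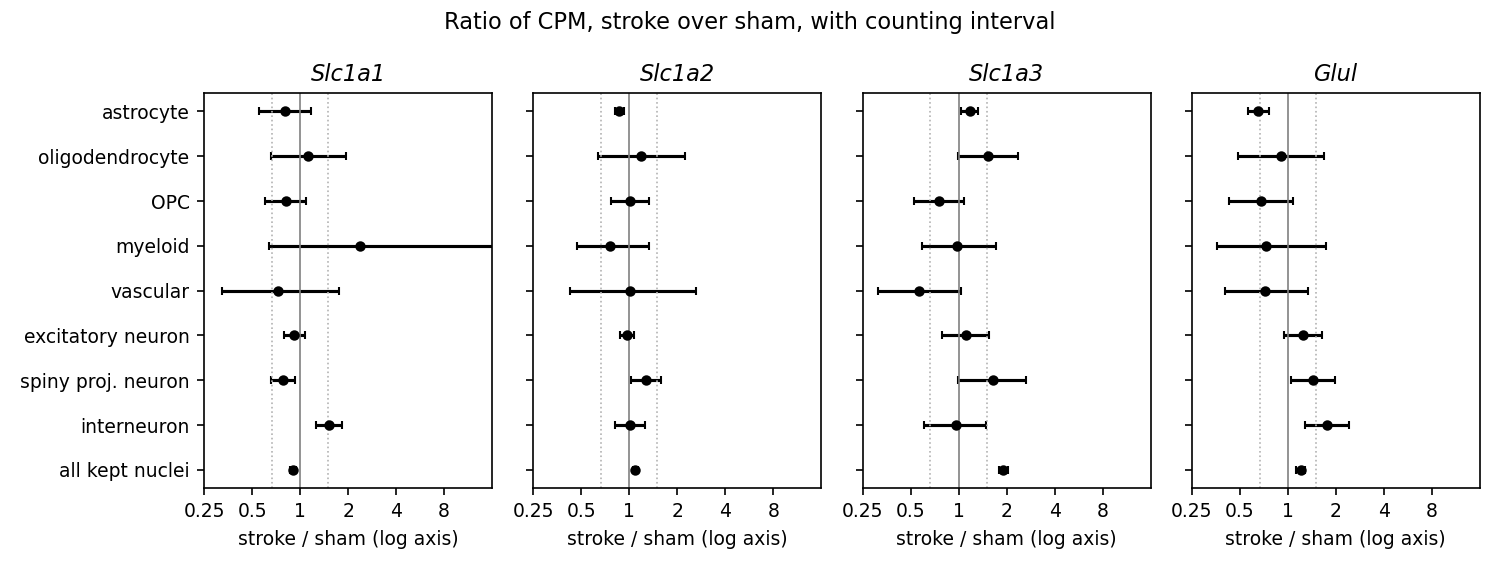
Ratio of stroke to sham CPM (x axis, log scale) for each member in each gated class and in all kept nuclei (y axis), with exact 95% counting intervals. Dotted lines mark 1.5-fold in either direction. The bar of Slc1a1 in myeloid nuclei, which rests on 2 sham fragments, runs past the axis to 19.9, and Glul is below 1 in astrocyte-gated nuclei and above 1 in the 3 neuronal classes.

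In the other classes the ratio took different values. Glul was higher in stroke in interneurons, from 19.7 CPM (15.9 to 24.1) to 34.9 CPM (27.5 to 43.6), a ratio of 1.77 (1.29 to 2.42). In spiny projection neurons it was 18.1 CPM in sham and 26.3 CPM in stroke (ratio 1.45, 1.06 to 1.97), and in excitatory neurons 19.8 and 24.7 CPM (1.247, 0.949 to 1.63). The astrocyte ratio of Glul was 0.370 (0.264 to 0.519) of the interneuron ratio, 0.452 (0.323 to 0.633) of the spiny projection neuron ratio and 0.525 (0.388 to 0.711) of the excitatory neuron ratio. Against OPC, oligodendrocyte, myeloid and vascular nuclei, where Glul ratios were 0.682 to 0.907, the intervals of this quotient included 1.

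Slc1a3 showed its largest astrocyte to other-class quotient against vascular nuclei, 2.09 (1.18 to 3.68), where it had 83.0 CPM in sham and 46.9 CPM in stroke. These vascular values rest on 21 and 31 fragments (ratio 0.564, 0.314 to 1.03). In vascular-gated nuclei the held-out markers Vtn, Esam and Eng were 1.37-fold, 4.15-fold and 4.32-fold the level of other nuclei. Against OPCs, at 96.6 and 72.9 CPM (ratio 0.7545, 0.525 to 1.09), the quotient was 1.56 (1.08 to 2.26). The vascular and OPC ratios of Slc1a3 thus had intervals that included 1. For Slc1a1 the ratio was 1.52 (1.26 to 1.83) in interneurons and 0.779 (0.654 to 0.923) in spiny projection neurons. For Slc1a2 it was 0.968 (0.872 to 1.07) in excitatory neurons, the neuronal class in which this gene was most open, and 1.28 (1.02 to 1.58) in spiny projection neurons. These intervals cover counting error only, and the make-up of a gated class may differ between the libraries, which was not tested.

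Over all kept nuclei the values differed from those within astrocytes. Slc1a3 was at 22.8 CPM (21.7 to 23.9) in sham and 43.4 CPM (41.7 to 45.3) in stroke, a ratio of 1.90 (1.79 to 2.03), past 1.5-fold as were 11.5% of 20979 genes upward and 0.372% downward. Over the promoter alone its log2 ratio was 0.33 in place of 0.93, short of 1.5-fold. Glul was at 26.9 and 32.5 CPM (1.21, 1.13 to 1.29), Slc1a2 at 126 and 137 CPM (1.09, 1.06 to 1.13) and Slc1a1 at 70.5 and 63.7 CPM (0.903, 0.864 to 0.943). Over all kept nuclei, more nuclei of a class and more open chromatin per nucleus cannot be told apart, and the shares of classes differed. Astrocyte-gated nuclei were 4.69% (4.20 to 5.22) of sham and 8.71% (7.94 to 9.52) of stroke nuclei, and myeloid nuclei 0.308% and 4.16%, while excitatory neurons were 9.10% and 5.13%. Astrocyte-gated nuclei gave 25.4% of the Slc1a3 fragments in sham and 30.6% in stroke, and myeloid nuclei 0.955% and 13.8%. Slc1a3 was also higher in stroke in the no-class nuclei, at 18.1 against 28.2 CPM (1.56, 1.42 to 1.71). When all called barcodes were used, Glul and Slc1a2 turned lower in stroke (log2 ratios −0.17 and −0.13), and Slc1a2 was lower over its promoter alone (−0.42).

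Chromatin along each locus was then examined from 10 kb upstream of the start to 5 kb downstream of the end, in 500 bp bins of cut sites, also given as CPM (cut sites per 1000000 cut sites of the same nuclei). With bins called open on all kept nuclei at 4 times the genome mean, 54 of 718 bins at the 4 loci (7.52%) were open, compared with 3.31% of the genome. By this call Slc1a1 had 17, Slc1a2 23, Slc1a3 5 and Glul 9 open bins. Astrocytes are few among the nuclei, so bins were also called on astrocyte-gated nuclei of both libraries at 8 times their mean, a choice made after the first call was seen. This gave 1 bin for Slc1a1, 106 of 295 for Slc1a2, 27 of 184 for Slc1a3 and 24 of 51 for Glul, against 1.68% of genome bins. Joined bins formed 70 regions, of which 48 were in Slc1a2, 15 in Slc1a3, 6 in Glul and 1 in Slc1a1. A bin needed 22 cut sites summed over both libraries, and stroke gave the larger part of the astrocyte fragments (3861235 against 2764012). Sites with few cut sites in sham thus entered only through stroke, which shapes the counts of higher regions here and in the genome-wide shares alike. The call on astrocyte-gated nuclei also selects sites open in that class, so folds of these regions over other nuclei are a description.

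At Slc1a2, astrocyte-gated nuclei were open at the start, upstream of it and at many places along the gene body. The upstream region, centred at −9.16 kb from the start, had 25.9 cut-site CPM in sham and 18.8 in stroke, a ratio of 0.726 (0.572 to 0.921). It was 10.6-fold more open in astrocyte-gated nuclei, on which it was called, than in all others. The region over the start had 59.0 and 47.3 cut-site CPM (0.801, 0.688 to 0.934), and in contrast to the upstream region it was also open in excitatory neurons at 21.5. The region at 86.6 kb, in intron 5, had 42.3 and 35.0 (0.826, 0.691 to 0.988) and was shared with OPCs at 19.9 but not with excitatory neurons at 2.44. Of like pooled level to the upstream one (21.7) were the regions at 104.8 kb (20.8), with 19.5 in sham and 21.8 in stroke (1.11, 0.869 to 1.43), and at 17.1 kb (20.1), with 15.7 and 23.2 (1.47, 1.13 to 1.93), so strong regions had ratios on both sides of 1. In intron 1, near the RefSeq start of Slc1a2 at 47.78 kb, sites at 45.1 kb and 46.3 kb were highest in excitatory neurons, at 6.80 and 8.40 cut-site CPM, where astrocyte-gated nuclei had 1.89 and 1.59 and spiny projection neurons 3.71 and 0.903. The 45.1 kb bin was also called open on astrocyte-gated nuclei, with 6 cut sites in sham and 19 in stroke. The astrocyte-open region that holds it, centred at 44.6 kb, had 5.43 cut-site CPM in astrocyte-gated nuclei and 7.39 in excitatory neurons.

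**Figure D3:**
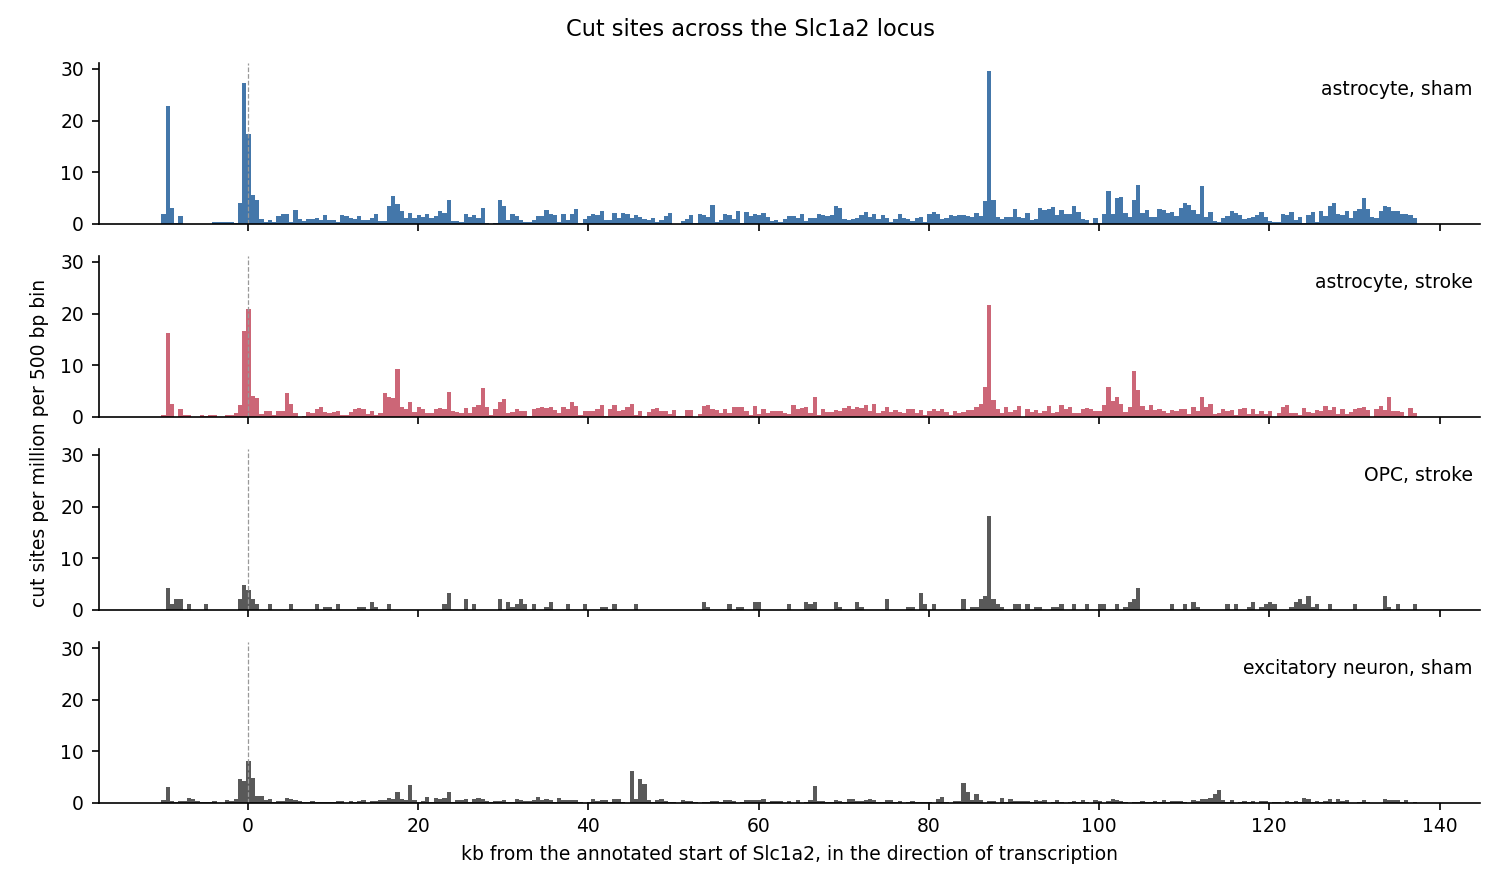
Cut-site CPM in 500 bp bins (y axis, same scale in all rows) against the distance from the annotated Slc1a2 start in kb (x axis), in astrocyte-gated nuclei of sham and stroke, OPCs of stroke and excitatory neurons of sham. Astrocytes peak about 9 kb upstream, at the start and near 87 kb, OPCs share the last peak, and excitatory neurons have bins near 45 kb that are lower in astrocytes.

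The stroke to sham ratio of Slc1a2 declined along the gene body. In 4 equal segments from the start, astrocyte cut-site CPM was 113 in sham and 123 in stroke in the first segment (1.09, 0.987 to 1.21), 86.5 and 84.0 in the second (0.972, 0.862 to 1.10), 138 and 113 in the third (0.819, 0.742 to 0.904) and 147 and 105 in the last (0.713, 0.646 to 0.787). The intervals of the first and last segments did not overlap. The division into segments was made after the regions had been seen. Of the 48 astrocyte-open regions of the locus, 15 were at least 1.5-fold lower and 5 at least 1.5-fold higher in stroke. Over 51622 astrocyte-open regions of the genome, 16.8% were lower and 28.2% higher by that measure. The region over the end of the gene, centred 131 kb from the start, had 74 cut sites in sham and 48 in stroke (0.464, 0.316 to 0.677).

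Single sites in intron 1 of Slc1a2 were higher in stroke. The region 66.6 kb from the start, whose sequence is shown above with its AP-1 match, had 6 cut sites in sham and 30 in stroke (3.58, 1.47 to 10.5). It met the minimum of 22 only through its stroke cut sites, and it was highest in excitatory neurons at 3.57 cut-site CPM. The region at 4.59 kb had 11 and 35 cut sites (2.28, 1.13 to 4.97) and no AP-1 but 1 STAT and 1 glucocorticoid receptor match. That at 27.1 kb had 32 and 75 (1.68, 1.10 to 2.62) and held 3 AP-1 matches and none of the other motifs. That at 17.1 kb had 87 and 179 cut sites and held 1 AP-1, 3 STAT and 2 glucocorticoid receptor matches over 2500 bp. Within it, the bin at 16.1 kb had 3 and 35 cut sites (8.35, 2.63 to 42.4), the highest ratio of any open bin of the locus, with an AP-1 and a STAT match. This bin and the 4.59 kb region also had under 22 cut sites in sham, so they met the minimum only with their stroke cut sites. The same held for each bin of the 27.1 kb region.

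Of the 15 regions of Slc1a3, 6 were at least 1.5-fold higher in stroke and none was 1.5-fold lower, beside 28.2% and 16.8% of regions genome-wide, and 3 were at least 3-fold higher, as were 10.7% of regions genome-wide. The 3 regions with most astrocyte cut sites had intervals that included 1 when taken whole. They lay in intron 3 at 51.3 kb (35.8 and 32.6 cut-site CPM in sham and stroke, ratio 0.911, 0.753 to 1.10) and 47.0 kb (18.1 and 16.7, 0.923, 0.706 to 1.21), and downstream of the gene at 81.3 kb (17.2 and 18.1, 1.06, 0.807 to 1.38). Bins within the first differed. The 2 most cut were lower in stroke, with 103 and 107 cut sites (0.744, 0.562 to 0.984) and 55 and 49 (0.638, 0.425 to 0.955), while the bin at 52.5 kb had 6 and 28 (3.34, 1.36 to 9.87) and that at 50.01 kb had 6 and 20 (2.39, 0.924 to 7.26). The whole region was 16.6-fold more open in astrocyte-gated nuclei, on which it was called, than in others. It was also open in oligodendrocytes at 16.9 and OPCs at 14.8 cut-site CPM. The start itself was a weaker site, with 10.3 in sham and 7.25 in stroke (0.703, 0.478 to 1.04).

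The regions with the highest ratios in Slc1a3 were weak in sham. The region in intron 6 at 66.5 kb, shown above with its AP-1 match, had 2 cut sites in sham and 27 in stroke (9.66, 2.43 to 83.9), and its 500 bp also held a STAT match outside the bases shown. The upstream site at −6.49 kb had 3 and 24 cut sites (5.73, 1.74 to 29.7) and 2 AP-1 matches, with oligodendrocytes highest at 2.35 cut-site CPM. In intron 3, the site at 28.5 kb had 4 and 23 (4.12, 1.41 to 16.4), with vascular nuclei highest at 10.4 cut-site CPM, and that at 38.0 kb had 12 and 50 (2.98, 1.57 to 6.15), with no match to any of the 4 motifs in either. These regions were picked out for their ratios among 15, and each met the minimum of 22 only with its stroke cut sites, so the values are a description.

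**Figure D4:**
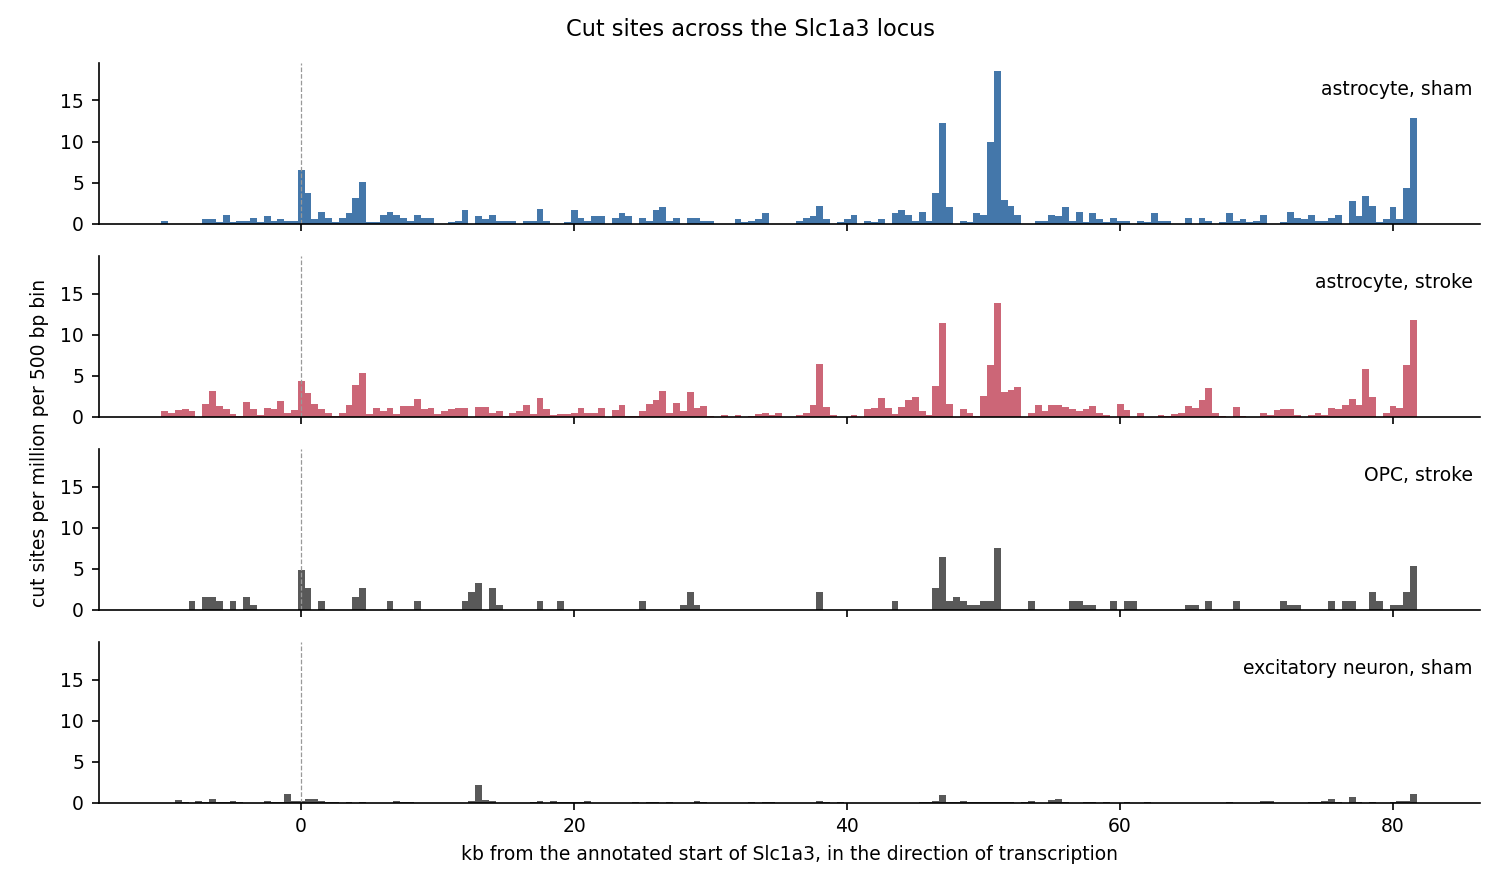
Cut-site CPM in 500 bp bins (y axis, same scale in all rows) against the distance from the annotated Slc1a3 start in kb, in the direction of transcription (x axis), for the same nuclei as for Slc1a2. The peaks near 47, 51 and 81 kb stand in both astrocyte rows, that near 51 kb lower in stroke, the bins near 38 and 66 kb stand out in stroke, and excitatory neurons have little signal.

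At Glul, accessibility was lower in stroke over the promoter and more so over the rest of the gene. Within 1 kb of the start, astrocyte-gated nuclei had 70.0 cut-site CPM in sham and 52.4 in stroke (0.749, 0.650 to 0.863). The rest of the window had 51.7 and 27.3 (0.528, 0.440 to 0.633), and its interval did not overlap that of the promoter. By 4 equal segments of the gene body the ratios were 0.598, 0.493, 0.664 and 0.625, each with an interval below 1. Of 6 astrocyte-open regions, 4 were at least 1.5-fold lower in stroke and none was 1.5-fold higher, beside the genome-wide 16.8% and 28.2%. The upstream site at −4.69 kb had 10.1 and 6.60 cut-site CPM (0.652, 0.437 to 0.970). The region downstream of the gene at 11.6 kb, 9.05-fold more open in astrocyte-gated nuclei, on which it was called, than in others, had 28.2 and 21.6 (0.766, 0.612 to 0.959).

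At Slc1a1, the start was the only astrocyte-open bin, with 2.89 cut-site CPM in sham and 1.81 in stroke. Over the 1500 bp called at the start on all nuclei, the pooled cut-site CPM was 2.79 in astrocyte-gated nuclei, 11.7 in interneurons, 11.3 in spiny projection neurons, 9.97 in OPCs and 7.85 in excitatory neurons. A region 62.2 kb into the gene was highest in OPCs at 19.9, followed by spiny projection neurons at 8.93, oligodendrocytes at 7.503 and excitatory neurons at 5.80. A second region, at 68.0 kb, was highest in excitatory neurons at 8.06, against 0.643 in OPCs and no cut site in astrocyte-gated nuclei. Both regions also lie inside 4430402I18Rik on the other strand, and their cut sites cannot be told apart from those of that gene.

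**Figure D5:**
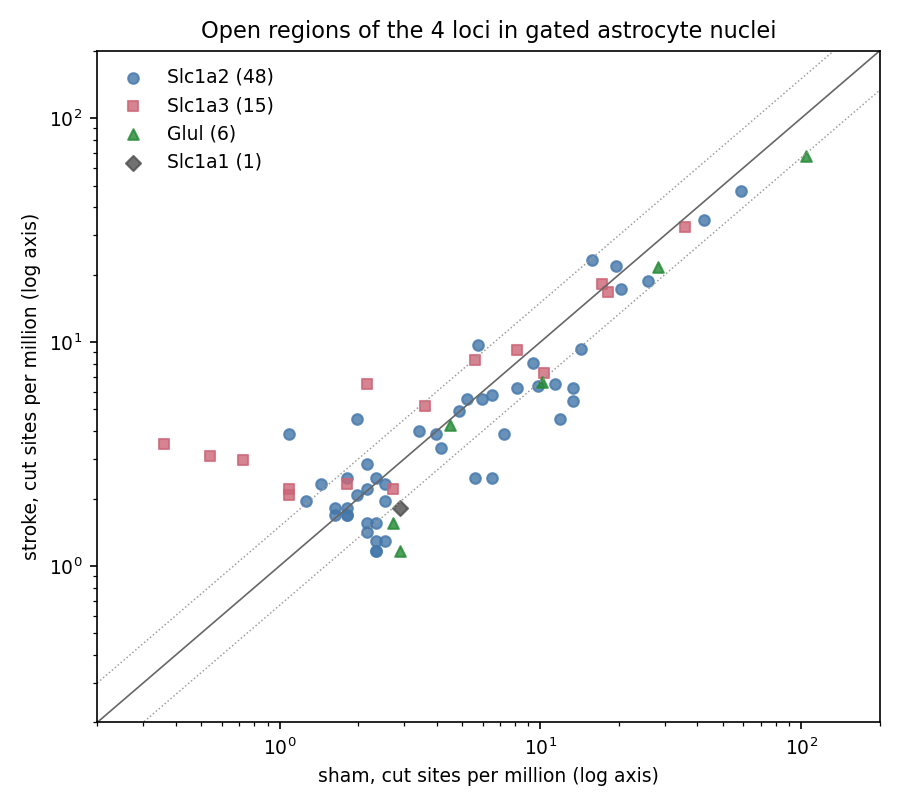
Cut-site CPM in sham (x axis, log scale) and stroke (y axis, log scale) for the 70 astrocyte-open regions of the 4 loci, 1 point per region in astrocyte-gated nuclei, with the line of equality and dotted lines at 1.5-fold. Most Slc1a2 and Glul regions lie on or below the line, and 4 Slc1a3 regions that are weak in sham, with 2 to 12 cut sites, lie farthest above it among those of Slc1a3.

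Motif letters were counted in bins that were higher in stroke and in the others. Of 158 astrocyte-open bins at the 4 loci, 27 were at least 1.5-fold higher in stroke, beside 21912 of 81530 such bins of the genome. Of the 27 member bins, 7 held an AP-1 match, against 18 of the other 131. Over 81530 astrocyte-open bins of the genome, a match stood in 28.8% of the higher bins and 10.2% of the others. For STAT the member counts were 8 of 27 and 22 of 131, with 17.8% and 12.8% genome-wide. For the glucocorticoid receptor they were 7 of 27 and 21 of 131, with 14.4% and 11.2%. The member counts are small and were not tested, and those of the 3 motifs were alike. No member bin held the full NFI motif. A match shows the letters only, not that a factor was bound.

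Among other genes of glutamate handling, few passed 1.5-fold in astrocyte-gated nuclei. Of 23 listed genes, 22 had at least 20 fragments. Of these, 1 was at least 1.5-fold higher in stroke and none lower, beside the 10.2% and 6.95% of all genes. Their median log2 ratio was −0.02 beside −0.03 for all genes. The 1 gene was Ajuba, a LIM-domain scaffold protein, at 15.2 CPM in sham and 33.9 CPM in stroke (2.23, 1.57 to 3.24). With promoter scaling, which adds 0.15 to every log2 ratio, 4 listed genes passed 1.5-fold. The lowest of these 4 had 85.8% of all genes below it. The share of all genes past 1.5-fold with this scaling was not computed. Kcnj10, the inward rectifier through which astrocytes take up potassium, was at 244 and 195 CPM (0.7997, 0.720 to 0.889). Among glutamine carriers Slc38a1 was at 86.1 and 64.5 CPM (0.749, 0.625 to 0.898). Grm5, a metabotropic glutamate receptor, was at 104 and 138 CPM (1.34, 1.16 to 1.55). Slc7a11, the cystine and glutamate antiporter, was at 172 and 159 CPM in astrocyte-gated nuclei (0.929, 0.823 to 1.05) but higher in stroke over all kept nuclei, at 75.4 and 114 CPM (1.51, 1.46 to 1.57), where it was the only one of 23 listed genes past 1.5-fold, beside 11.5% of all genes higher and 0.372% lower. In excitatory neurons it was at 58.7 and 92.8 CPM (1.58, 1.37 to 1.82), in spiny projection neurons at 53.8 and 83.9 CPM (1.56, 1.31 to 1.85) and in vascular nuclei at 123 and 219 CPM (1.79, 1.21 to 2.73). Its ratio was 1.26 in interneurons, 1.16 in oligodendrocytes, 1.10 in OPCs and 0.754 (0.507 to 1.17) in myeloid nuclei. Two-way differences past 1.5-fold in excitatory neurons also included Slc1a5, higher at 6.97 and 11.6 CPM (1.67, 1.09 to 2.54), and Kcnj10, lower at 31.2 and 19.2 CPM (0.616, 0.463 to 0.810). Slc1a5 was also higher in spiny projection neurons (1.73, 1.06 to 2.77). It was lower in interneurons, at 16.95 and 3.17 CPM on 80 and 7 fragments (0.187, 0.0728 to 0.403). Its intervals in the remaining gated classes included 1. In excitatory neurons, 22 listed genes had at least 20 fragments, of which 2 were at least 1.5-fold higher and 1 lower in stroke. Of the 17524 genes tested there, 96.47% lay below Slc1a5, 95.55% below Slc7a11 and 3.801% below Kcnj10. The share of all genes past 1.5-fold in excitatory neurons is not given here. Kcnj10, Slc38a1, Grm5, Slc7a11 and Slc1a5 were named after their values were seen.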

How the data were processed

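Nuclei of 1 sham and 1 stroke library (4 pooled mice each) were profiled by scATAC-seq. The authors ran Cell Ranger ATAC 2.1.0 against mm10 and deposited fragments and a per-barcode table of counts; these counts are not normalized. Here, called barcodes with over 20% of fragments in peaks were kept (6817 sham, 5054 stroke; median 10353 and 9898 fragments). Fragments over each GENCODE M21 coding gene plus 2 kb upstream were divided by all fragments of the same nuclei, per 1000000 (CPM). Classes were seeded from marker lists that hold no member. Seed nuclei (z of 5 or more on 1 list, 3 above the next) gave class profiles over coding genes. Members, genes overlapping them, pathway genes and held-out markers were left out of the profiles. A nucleus was gated where its profile odds reached 20 and its own list's z reached 2. This rule was chosen after marker distributions, but no member value, had been seen. The members and lists were chosen with earlier results of these data known.

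Python 3.11.15, numpy 2.4.6 and scipy 1.17.1 were used. With 1 library per condition no test was possible: intervals are exact 95% (Poisson, binomial or conditional binomial; Wald on the log scale for a ratio of ratios) and cover counting error only. A difference was called past 1.5-fold with at least 20 fragments. A gene or region with no fragment in 1 library entered the background shares at 3 counts. Named genes were the members, listed pathway genes past 1.5-fold in astrocyte-gated nuclei, the 3 genes most like each member, and the markers, with further pathway genes named after their values were seen. Doublets were not removed, and 42 barcode sequences occurred in both libraries. Ratios were run on counts simulated at known folds. The gate was run on nuclei drawn from its own class profiles, which cannot show how well it separates real nuclei or doublets. Alternatives covered the barcode filter, window, unit, scaling, weighting, depth and gate.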

Additional observations from a re-analysis of the deposited data

Results flagged for a closer look

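Among all pairs of the 8 classes for each of the 4 members, 4 had stroke to sham ratios whose counting intervals lay on opposite sides of 1. The share of such pairs over all genes was not computed, so it is not known whether 4 is many. With 1 library per condition these differences were not tested. For Glul the interneuron ratio (1.77, 1.29 to 2.42) was 2.70 times the astrocyte ratio (0.654, 0.559 to 0.766), and the spiny projection neuron ratio (1.45, 1.06 to 1.97) was 2.21 times it. For Slc1a1 the interneuron ratio (1.52, 1.26 to 1.83) was 1.95 times the spiny projection neuron ratio (0.779, 0.654 to 0.923). For Slc1a2 the spiny projection neuron ratio (1.28, 1.02 to 1.58) was 1.47 times the astrocyte ratio (0.867, 0.809 to 0.931).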

How the results depend on the processing

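No paired analysis was possible because only 1 sham and 1 stroke library were analysed, and no replicate could be left out. All values are log2 unless said otherwise. Slc1a2, Slc1a3 and Glul stayed highest in astrocyte-gated nuclei under all 13 alternatives run on the order of classes. Slc1a1 stayed highest in OPCs except with either alternating set of gate markers (−0.36 with the first, −0.67 with the second) and with the marker score alone (−0.15, chosen after seeing the data), where spiny projection neurons were highest. The lead of the highest class moved beyond its counting interval in these cases. Over promoters alone it was 0.09 for Slc1a1 (main 0.52) and 1.28 for Slc1a2 (1.66). Scaled to promoter fragments it was 1.04 for Slc1a2 and 0.26 for Slc1a3 (0.79). With the first alternating set it was 1.83 for Slc1a2 and 1.15 for Glul (0.70). With the marker score alone it was 1.35 for Slc1a2 and 1.51 for Slc1a3. In nuclei with 30 to 50% of fragments in peaks, also chosen after seeing the data, it was 1.42 and 0.57.

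The astrocyte stroke to sham ratio moved to 0.31 for Slc1a1 and −0.93 for Glul by the mean of single-nucleus CPM, to −0.34 for Slc1a2 and −0.23 for Slc1a3 over promoters, to −0.05 for Slc1a2 with promoter scaling, to 0.06 for Slc1a3 at 2000 fragments, and to 0.10, 0.57 and −0.19 for Slc1a2, Slc1a3 and Glul with the marker score alone. Over all kept nuclei it moved to −0.36, −0.13, 0.83 and −0.17 for Slc1a1, Slc1a2, Slc1a3 and Glul with all called barcodes, to −0.01, 0.26, 1.06 and 0.41 with promoter scaling, to −0.42 for Slc1a2 and 0.33 for Slc1a3 over promoters, and for Slc1a3 to 0.67 by single-nucleus CPM and 0.80 at 2000 fragments. Promoter scaling put 4 listed pathway genes past 1.5-fold in place of 1 and the list's median at 0.13. The share of all genes past 1.5-fold with that scaling was not computed. At 8 times the genome mean the open bins numbered 7 of 188, 8 of 295, 2 of 184 and 4 of 51 for Slc1a1, Slc1a2, Slc1a3 and Glul. That is 21 of 718 bins, beside 60223 of 4847040 bins of the genome. Called on astrocyte-gated nuclei, chosen after seeing the data, the open bins of the 4 loci numbered 1, 106, 27 and 24, against 1.68% of genome bins. The other 104 values stayed within the counting intervals of the main ones or, for counts and the list's median, close to them, although 6 of these put the astrocyte ratio of Glul short of 1.5-fold (−0.43 to −0.58). Except where the scaling or the set of nuclei defines the change, the cause was not tested.

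Depth limits the small classes most: sham myeloid nuclei numbered 21, with 2 Slc1a1 fragments, and no interval here covers the spread between animals.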

Other observations

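Called barcodes left out for a low share of fragments in peaks numbered 162 in sham and 3686 in stroke. In them Slc1a2 was at 96.0 CPM (80.1 to 114) and 79.8 CPM (76.9 to 82.8), Slc1a3 at 30.8 CPM (22.1 to 41.7) and 37.1 CPM (35.1 to 39.2), Slc1a1 at 44.3 CPM (33.7 to 57.1) and 41.3 CPM (39.2 to 43.5), and Glul at 9.75 CPM (5.19 to 16.7) and 10.5 CPM (9.42 to 11.6) in sham and stroke. In the kept nuclei Glul was at 26.9 and 32.5 CPM.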
